A study of Mus musculus with 18 samples.

Results

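Collagens are secreted proteins whose chains wind around each other into rigid helices and assemble outside the cell into fibrils, sheets and filaments. The collagen genes of mouse kidney cortex were followed through toxin injury and remodeling. Members were taken by gene name, as each row whose name is Col, a type number, the letter a and a chain number, without Col4a3bp, which encodes a lipid transfer protein. The rule found 44 genes among the 24062 rows of the expression table. Of these, 11 encode fibrillar chains, 6 encode the chains of type IV, the network collagen of basement membranes, and 27 belong to other types. A gene was tested when it reached 1 RPKM (reads scaled to transcript length in kilobases and to library size) in at least 3 libraries. This left 7 fibrillar, 6 type IV and 13 other collagen genes, 26 in all, among 13624 tested genes.

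The mice were C57Bl/6 of 2 genotypes. Klf15PTKO mice (PTKO) lack Klf15, a zinc finger transcription factor, in the proximal tubule, and Klf15fl/fl mice (fl/fl) carry the floxed alleles. Mice of each genotype were given 1 of 3 treatments. These were the vehicle alone (DMSO), 2 weeks of aristolochic acid I, which poisons proximal tubule cells (AA 2wk), and the same course with 2 weeks of remodeling after it (AA 4wk). Each of the 6 groups has 3 libraries of total RNA from perfused cortex. No source used here names the Cre line, and no group has Cre with intact Klf15, so effects of the deletion and of Cre cannot be told apart. The labels do not say that the libraries of a group came from separate mice, and p-values measure the spread between these samples, which may be technical. One DMSO group per genotype serves both courses, and the labels give it no week.

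Fibrillar collagens, chiefly types I, III and V, are made by fibroblasts, pericytes and myofibroblasts and form the scar of kidney fibrosis. Col4a1 and Col4a2 chains form the network of nearly every basement membrane. Col4a3, Col4a4 and Col4a5 chains form that of the mature glomerular basement membrane, where podocytes make them, and Col4a5 with Col4a6 occurs in Bowman's capsule. Among the other types, VI forms beaded filaments, VIII forms short-chain networks, XII, XIV and XVI attach to fibrils, and XV and XVIII lie in basement membrane zones.

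The start regions of 4 collagen genes whose RNA was higher after the toxin are shown, 2 fibrillar, 1 of type IV and 1 of the other types, to let the letters before their starts be compared. Capitals mark the TATA box TATAAA, the GC box GGGCGG and the CACCC box wherever a match lay on either strand. The capital run of Col1a2 that is the longer of its pair is a GC box that overlaps a CACCC box of the other strand. The sequences are from RefSeq (GRCm38.p6), written 5′ to 3′ in the direction of transcription.
Col3a1, chr1:45311288-45311537, plus strand: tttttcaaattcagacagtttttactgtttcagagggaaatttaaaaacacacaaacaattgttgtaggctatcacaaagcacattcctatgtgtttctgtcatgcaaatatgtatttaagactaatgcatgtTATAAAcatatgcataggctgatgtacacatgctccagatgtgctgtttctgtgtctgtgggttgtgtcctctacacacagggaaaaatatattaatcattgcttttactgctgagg
Col1a2, chr6:4505370-4505492, plus strand: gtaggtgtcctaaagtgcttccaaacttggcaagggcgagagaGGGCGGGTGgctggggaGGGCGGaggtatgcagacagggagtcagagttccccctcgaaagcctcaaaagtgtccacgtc
Col8a1, chr16:57754738-57754987, minus strand: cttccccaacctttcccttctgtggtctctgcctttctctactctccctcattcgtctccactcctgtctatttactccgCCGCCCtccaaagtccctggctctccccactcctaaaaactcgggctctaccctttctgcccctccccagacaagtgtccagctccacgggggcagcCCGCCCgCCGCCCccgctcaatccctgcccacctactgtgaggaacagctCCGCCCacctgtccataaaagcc
Col4a6, chrX:141474077-141474326, minus strand: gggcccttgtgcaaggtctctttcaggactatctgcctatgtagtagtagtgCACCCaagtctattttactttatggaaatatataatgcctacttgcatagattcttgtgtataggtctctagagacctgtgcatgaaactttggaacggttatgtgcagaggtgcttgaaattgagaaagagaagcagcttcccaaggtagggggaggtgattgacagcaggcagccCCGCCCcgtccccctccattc
The Col3a1 stretch held a TATAAA at positions -117 to -112 from the RefSeq start, and the Col8a1 stretch held 4 copies of GGGCGG on the other strand. The Col1a2 stretch is the part of its window outside GENCODE exons and lies within the longer GENCODE Col1a2 gene. Start windows, the 250 bases before the start, were found for 35 of the 44 members, 38 windows in all. GGGCGG was in 22 of these 38 windows (57.9%), against 32.7% of all 32851 windows in the table, and CACCC was in 26 (68.4%), against 52.0%. CCAAT was in 13 (34.2%), against 33.8%, and TATAAA was in 5 (13.2%), against 12.4%. A match to such short letters is a description of the window and not evidence of a bound factor.

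Some members are neighbours in the genome (GENCODE M21, GRCm38). Col4a1 (ENSMUSG00000031502, chr8:11198423-11312826, minus strand) and Col4a2 (ENSMUSG00000031503, chr8:11312805-11449287, plus strand) start 21 bases apart on opposite strands and share 22 exonic bases. Col4a3 (ENSMUSG00000079465, chr1:82586921-82722059, plus strand) and Col4a4 (ENSMUSG00000067158, chr1:82448423-82586849, minus strand) start 72 bases apart, and Col4a5 (ENSMUSG00000031274, chrX:141475385-141689234, plus strand) and Col4a6 (ENSMUSG00000031273, chrX:141165403-141474076, minus strand) start 1309 bases apart. Col3a1 (ENSMUSG00000026043, chr1:45311538-45349706, plus strand) and Col5a2 (ENSMUSG00000026042, chr1:45374321-45503282, minus strand) have 24614 bases between them. Whether the counting used strand is not stated in the labels or headers.

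The libraries held 10980000 to 21920000 reads in genes, rounded and as recovered from the steps of the RPKM values. Klf15 was at 28.5 to 32.6 RPKM in PTKO DMSO, against 53 to 65.5 in fl/fl DMSO. It was at 12.5 to 25.6 in PTKO AA 2wk, against 18.6 to 41.3 in fl/fl AA 2wk, where the genotypes overlapped, and at 8.81 to 9.53 in PTKO AA 4wk, against 11.6 to 18.8 in fl/fl AA 4wk. Library 3 of both AA 2wk groups and library 3 of fl/fl DMSO stood apart by low stromal genes. In the AA 2wk groups library 3 also differed in other markers. Summed proximal tubule markers were at 2899 RPKM in PTKO library 3, against 1204 and 1097, and at 2126 in fl/fl library 3, against 1335 and 1133. Summed macrophage markers were at 580 RPKM in PTKO library 3, against 1700 and 1802, and at 246 in fl/fl library 3, against 814 and 1983. The summed RPKM of 9 fibroblast and pericyte markers was 177, 105 and 45.8 in PTKO AA 2wk, against 49 to 68.4 in PTKO DMSO, and 232, 150 and 83.7 in fl/fl AA 2wk, against 49.4, 90 and 21.8 in fl/fl DMSO. The summed RPKM of 6 podocyte markers was 381 in PTKO AA 2wk library 3 and 181 and 182 in the other two. In these bulk samples, more cells of a type and more RNA per cell cannot be told apart.

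Collagen transcripts were more abundant after the toxin in both genotypes, and fibrillar chains took a larger share of them. The summed RPKM of the 44 genes in PTKO was 271 ± 14.6 in DMSO, 585 ± 286 in AA 2wk and 1048 ± 49.3 in AA 4wk (SD, n = 3 each). In fl/fl it was 217 ± 50.5 in DMSO, 668 ± 251 in AA 2wk and 754 ± 86.9 in AA 4wk (SD, n = 3 each). Each AA 4wk library was above each DMSO library, while PTKO AA 2wk library 3, at 283, lay within the PTKO DMSO range of 260 to 287. Fibrillar chains made up 37% to 38.5% of the sum in PTKO AA 4wk, against 14.1% to 18.1% in PTKO DMSO, and 30.4% to 35.2% in fl/fl AA 4wk, against 9.34% to 22.3% in fl/fl DMSO. Type IV made up 30.4% to 31.9% in PTKO AA 4wk, against 55% to 59% in PTKO DMSO, and 32.3% to 35.8% in fl/fl AA 4wk, against 49.4% to 66.8% in fl/fl DMSO. Neither share overlapped between AA 4wk and DMSO libraries of a genotype. In AA 2wk the fibrillar share was 36.9%, 25.2% and 9.68% in the PTKO libraries and 36.1%, 32.7% and 19% in the fl/fl libraries, lowest in library 3 of each.

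**Figure D1:**
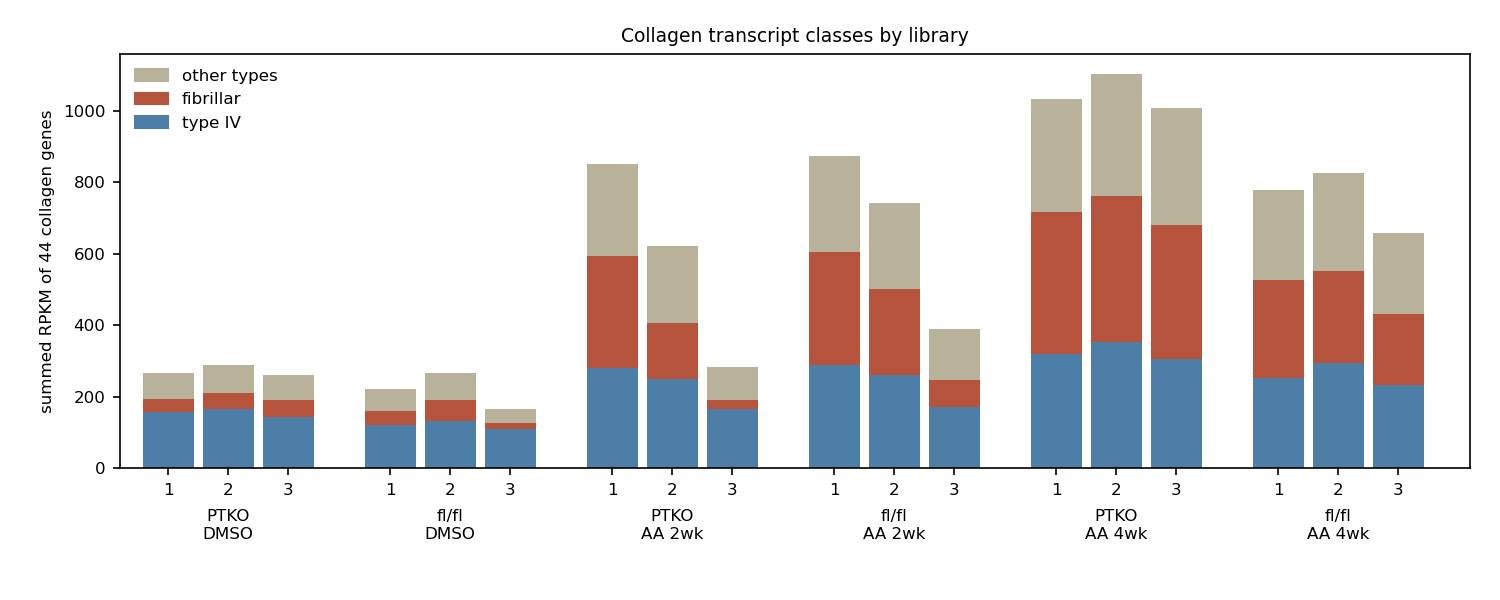
Summed RPKM of the collagen genes in each of the 18 libraries, divided into fibrillar, type IV and other types. AA 4wk libraries reach 657 to 1103 RPKM and DMSO libraries 165 to 287, and library 3 is the lowest of each AA 2wk group.

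Most of the 26 tested collagen genes were called higher after the toxin in 3 of the 4 comparisons with DMSO. Calls were made at an adjusted p under 0.05 (limma on log2(RPKM + 1), Benjamini-Hochberg over all tested genes, two-sided). In PTKO AA 2wk 9 rose and 3 fell, against 45.9% of all tested genes called higher and 14.3% called lower. In PTKO AA 4wk 21 rose and 2 fell, against 55.0% and 17.3%. In fl/fl AA 2wk 17 rose and 1 fell, against 50.4% and 12.2%. In fl/fl AA 4wk 18 rose and 0 fell, against 51.9% and 14.3%. So many genes were called that these counts set the family little apart, but the sizes were larger: the median log2 fold change of the collagen genes was 0.65, 1.67, 1.43 and 1.51 in these comparisons in the order given, against 0.29, 0.40, 0.33 and 0.35 over all tested genes. Col4a6, Col5a3, Col8a2 and Col20a1 reached 1 RPKM in AA libraries alone, and Col23a1 in DMSO libraries alone. Outside AA libraries Col12a1 reached it only in fl/fl DMSO library 2, at 1.01 RPKM. Each passed the filter only through groups where it was high. Its call and fold change are included in these counts and medians and in those by class, and are not support for a change of the family.

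The direction of many small changes depended on the scaling. Of all genes called in those 4 comparisons, 76.3%, 76.1%, 80.5% and 78.4% were higher on the deposited scale, against 49.5%, 49.3%, 50.2% and 49.3% after median-of-ratios scaling, which moved the median of all genes to within 0.01 of 0. On that scale 9, 17, 14 and 15 collagen genes rose and 3, 2, 3 and 2 fell. With quantile normalization 46.7%, 44.5%, 44.8% and 43.8% of all calls were higher, and 7, 14, 12 and 13 collagen genes rose while 4, 3, 6 and 5 fell. Col20a1 and Col5a3 were called lower there in both fl/fl courses, although all 4 values were above 0 on the deposited scale. Without PTKO AA 2wk library 3, 19 collagen genes were called in PTKO AA 2wk in place of 12. Without library 3 of both AA 2wk groups, 18 rose and 2 fell in PTKO AA 2wk and 20 rose and 2 fell in fl/fl AA 2wk. The share of all tested genes called is not given here for these settings, so their collagen counts do not set the family apart.

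**Figure D2:**
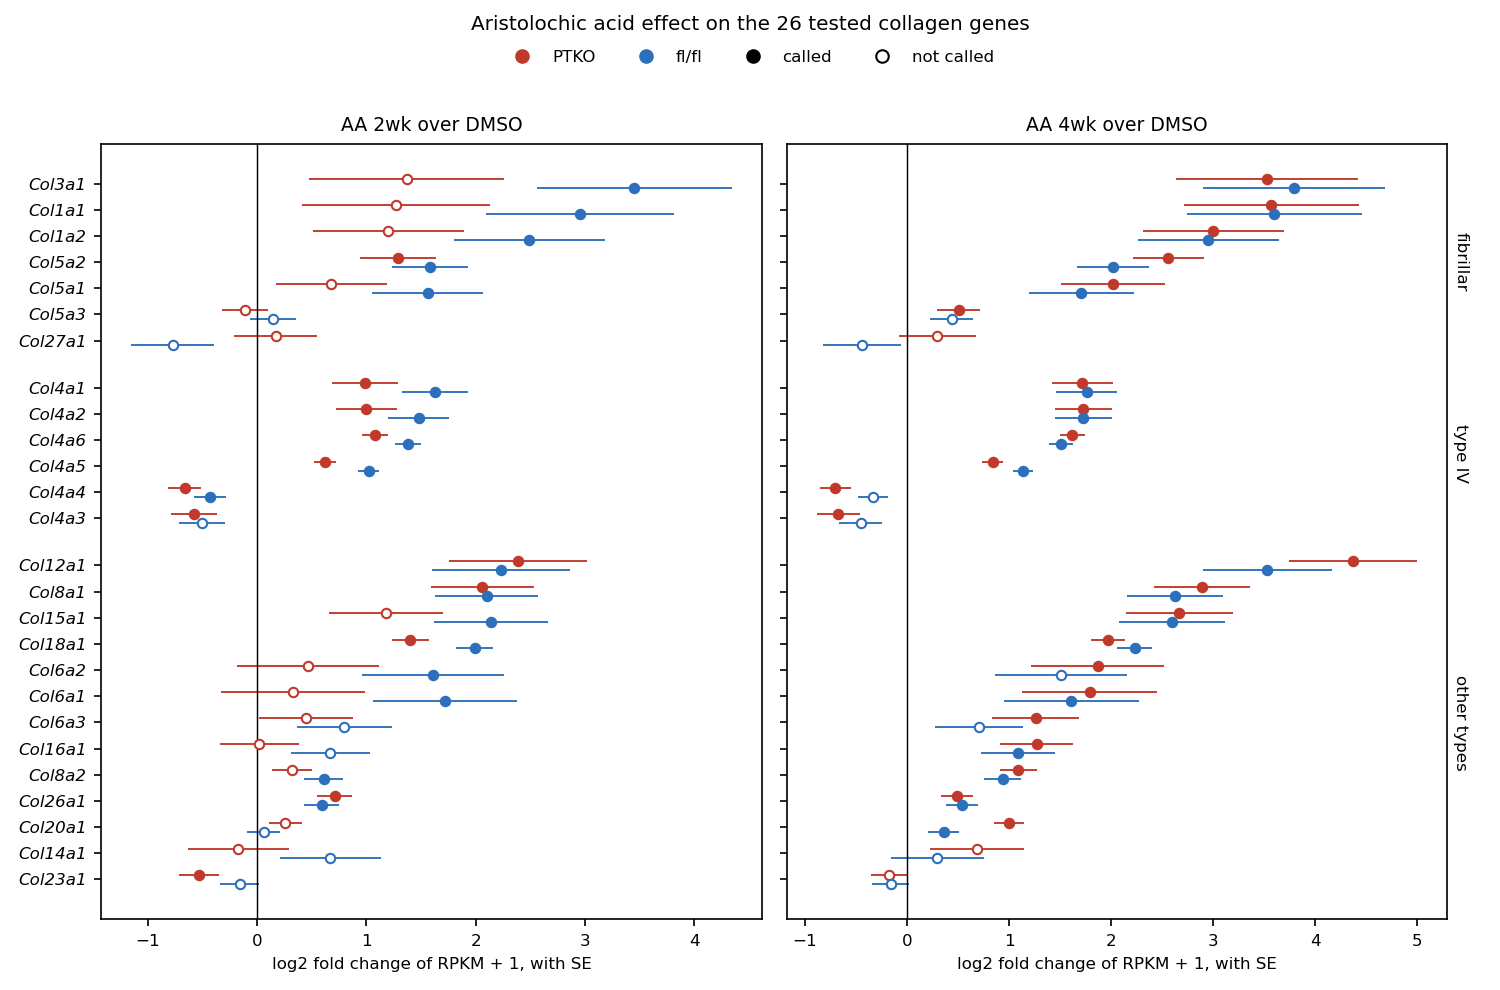
Log2 fold changes of RPKM + 1 over DMSO (horizontal axis) of the tested collagen genes with standard errors, by class, for both genotypes and both courses. Each row is a gene, filled points are called, and most lie right of 0. Left of it lie, among others, Col4a3, Col4a4 and Col23a1 in both genotypes and Col27a1 in fl/fl. The small rises of Col26a1, of Col20a1 in fl/fl AA 4wk and of Col5a3 in PTKO AA 4wk turn below 0 under quantile normalization (Col26a1 in every comparison but PTKO AA 2wk).

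The chains of types I and III rose in AA 4wk in both genotypes. Col3a1 encodes the chain of type III, which is laid down with type I in loose tissue and early scar. In PTKO, Col3a1 was at 9.64, 9.59 and 15 RPKM in DMSO, 119, 58.4 and 3.33 in AA 2wk and 145, 144 and 131 in AA 4wk. In fl/fl it was at 5.92, 9.15 and 2.35 RPKM in DMSO, 122, 97.3 and 24.3 in AA 2wk and 98.9, 86.8 and 70.6 in AA 4wk. Each AA 4wk library was far above each DMSO library, and PTKO AA 2wk library 3 was below all PTKO DMSO libraries. The log2 fold change over DMSO was 1.37 ± 0.89 (SE, as in all fold changes that follow) in PTKO AA 2wk, which missed the threshold (limma adjusted p = 0.194), and 3.53 ± 0.89 in PTKO AA 4wk (adjusted p = 0.00242). In fl/fl Col3a1 rose by 3.45 ± 0.89 in AA 2wk and 3.79 ± 0.89 in AA 4wk (adjusted p = 0.0038 and 0.00174).

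Type I, the main protein of mature scar, is built from Col1a1 (ENSMUSG00000001506, chr11:94936224-94953042, plus strand) and Col1a2 chains. In PTKO, Col1a1 was at 6.16, 6.96 and 8.9 RPKM in DMSO, 71.8, 33.5 and 2.16 in AA 2wk and 98.4, 101 and 92.8 in AA 4wk. In fl/fl, Col1a1 was at 4.42, 6.56 and 1.33 RPKM in DMSO, 68.9, 49.1 and 11.7 in AA 2wk and 62.5, 57.9 and 44.4 in AA 4wk. Its level in all AA 4wk libraries was above its level in all DMSO libraries. Col1a1 rose by 3.57 ± 0.86 in PTKO AA 4wk, 2.95 ± 0.86 in fl/fl AA 2wk and 3.60 ± 0.86 in fl/fl AA 4wk (limma adjusted p = 0.00176, 0.00813 and 0.00199), and its value of 1.27 ± 0.86 in PTKO AA 2wk was not called (adjusted p = 0.211). Col1a2 was at 11.9 to 15.3 RPKM in DMSO, 7.29 to 91 in AA 2wk and 111 to 120 in AA 4wk in PTKO, and at 3.79 to 13.4 RPKM in DMSO, 19.9 to 93.8 in AA 2wk and 56.8 to 79.2 in AA 4wk in fl/fl. It rose by 3.0 ± 0.69 in PTKO AA 4wk and 2.95 ± 0.69 in fl/fl AA 4wk (adjusted p = 0.00132 and 0.00178). The ratio of Col1a1 to Col1a2 RPKM was 0.836 to 0.871 in PTKO AA 4wk, against 0.455 to 0.667 in PTKO DMSO, and 0.762 to 0.789 in fl/fl AA 4wk, against 0.351 to 0.491 in fl/fl DMSO, so neither pair of ranges overlapped.

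**Figure D3:**
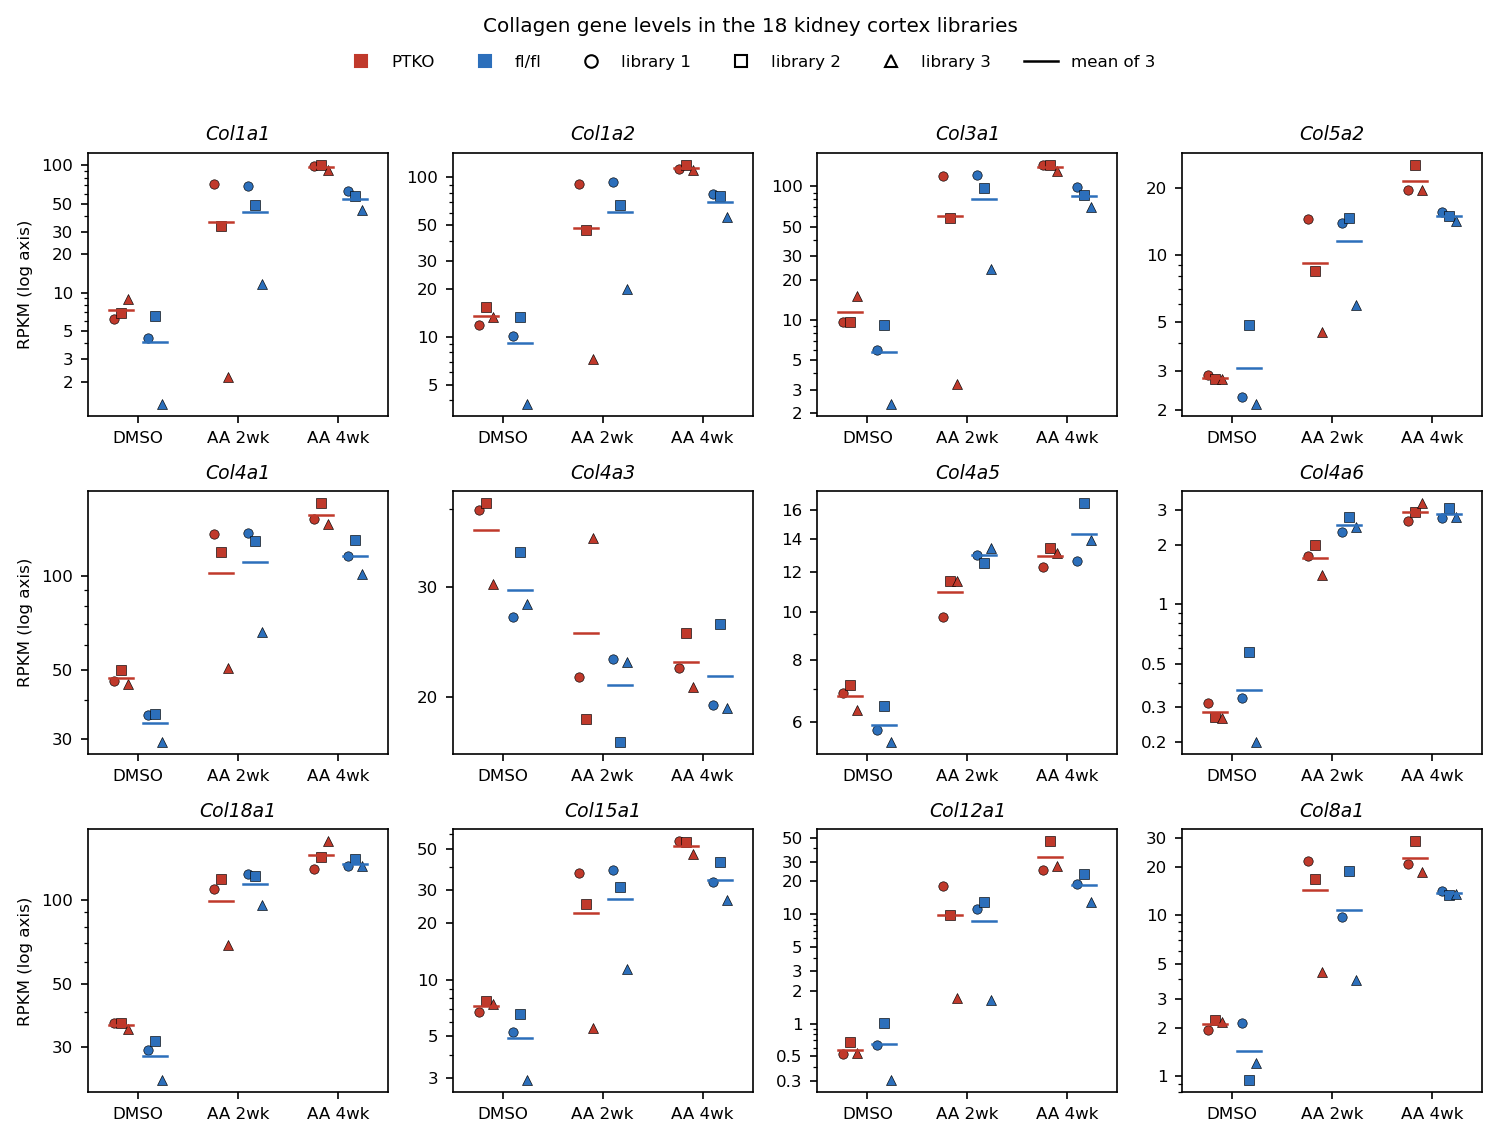
RPKM of collagen genes in each library, on a log axis, by group. Fibrillar genes such as Col1a1 and Col3a1 are above their DMSO levels in all AA 4wk libraries, and library 3 of each AA 2wk group is the lowest of its group for both genes.

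Type V chains start and limit the width of type I fibrils. Col5a2 was at 2.87, 2.77 and 2.77 RPKM in DMSO, 14.5, 8.46 and 4.48 in AA 2wk and 19.6, 25.4 and 19.6 in AA 4wk in PTKO. It was at 2.3, 4.82 and 2.13 RPKM in DMSO, 13.9, 14.6 and 5.94 in AA 2wk and 15.6, 15 and 14.2 in AA 4wk in fl/fl. Col5a2 was the fibrillar gene called in all 4 comparisons, at 1.29 ± 0.35 and 2.56 ± 0.35 in PTKO AA 2wk and AA 4wk and 1.58 ± 0.35 and 2.02 ± 0.35 in fl/fl (limma adjusted p = 0.0052, 1.46e-05, 0.00123 and 0.000149). Col5a1, at 9.76 to 11 RPKM in PTKO AA 4wk, against 1.78 to 1.91 in PTKO DMSO, rose by 2.02 ± 0.51 there, and it rose by 1.71 ± 0.51 in fl/fl AA 4wk (adjusted p = 0.00245 and 0.00848). Col5a3 stayed under 1.5 RPKM and was called in PTKO AA 4wk (0.51 ± 0.21, adjusted p = 0.0379), a value that turned to -0.28 under quantile normalization. That call was also lost without any 1 of the 3 PTKO DMSO libraries (adjusted p = 0.0962, 0.0646 and 0.0644) or without PTKO AA 4wk library 1 or 3 (adjusted p = 0.11 and 0.0817).

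Col27a1, a fibrillar chain best known from cartilage, was called in no comparison with DMSO. It was at 4.58, 7.17 and 4.6 RPKM in DMSO, 6.46, 3.8 and 9.1 in AA 2wk and 7.55, 6.18 and 6.79 in AA 4wk in PTKO, and at 14.5, 21.6 and 4.91 RPKM in DMSO, 6.21, 5 and 8.61 in AA 2wk and 9.02, 9.3 and 7.07 in AA 4wk in fl/fl. The highest values were in fl/fl DMSO libraries 1 and 2, and over DMSO it missed the threshold (limma adjusted p = 0.714 and 0.483 in PTKO, 0.0883 and 0.32 in fl/fl). By class, the fibrillar genes called higher were 1 and 6 of 7 in PTKO AA 2wk and AA 4wk and 5 and 5 of 7 in fl/fl, with none lower; their median log2 fold changes were 1.2, 2.56, 1.58 and 2.02. Those of the 6 type IV genes were 0.80, 1.23, 1.2 and 1.33. The order of these classes turned with the low members included, since without a filter the fibrillar medians were 0.23, 0.53, 0.15 and 0.44 while all type IV genes were tested already.

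Some fibroblast markers were also higher after the toxin. The sum of Col1a1, Col1a2 and Col3a1 divided by the summed fibroblast and pericyte markers was 1.6, 1.93 and 1.53 in PTKO AA 4wk, against 0.57, 0.47 and 0.71 in PTKO DMSO, and 1.25, 1.19 and 1.24 in fl/fl AA 4wk, against 0.41, 0.32 and 0.34 in fl/fl DMSO. The ratios did not overlap between AA 4wk and DMSO. In AA 2wk they were 1.59, 1.33 and 0.28 in PTKO and 1.23, 1.43 and 0.67 in fl/fl, with library 3 of PTKO below all PTKO DMSO libraries. Of the 8 tested markers, 4 rose in each AA 4wk group, 1 in PTKO AA 2wk and 3 in fl/fl AA 2wk, against 55.0% and 51.9% of all tested genes in PTKO and fl/fl AA 4wk and 45.9% and 50.4% in PTKO and fl/fl AA 2wk, so each count is below the share of all genes. The part of these markers' change in the collagen result was not tested.

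**Figure D4:**
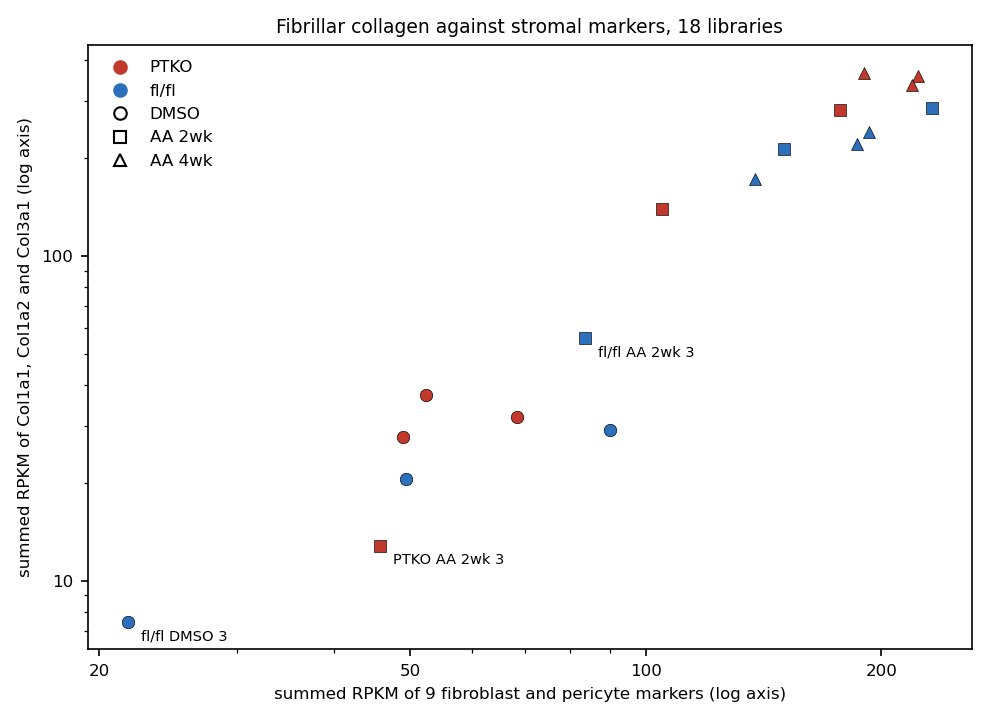
Summed RPKM of Col1a1, Col1a2 and Col3a1 (vertical, log axis) against that of 9 fibroblast and pericyte markers (horizontal, log axis), 1 point per library. Library 3 of both AA 2wk groups and of fl/fl DMSO lie at the low end of their groups on both axes.

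The type IV chains split in direction. Col4a1 was at 46, 49.9 and 45 RPKM in DMSO, 137, 120 and 50.8 in AA 2wk and 153, 172 and 147 in AA 4wk in PTKO. It was at 35.7, 36.1 and 29.2 RPKM in DMSO, 138, 130 and 66.2 in AA 2wk and 116, 131 and 102 in AA 4wk in fl/fl. All libraries after the toxin were above all DMSO libraries of the same genotype. Col4a1 rose by 0.99 ± 0.30 and 1.72 ± 0.30 in PTKO AA 2wk and AA 4wk and by 1.63 ± 0.30 and 1.76 ± 0.30 in fl/fl (limma adjusted p = 0.0117, 0.000151, 0.000404 and 0.000166); the PTKO AA 2wk call was lost without library 1 or 2 of that group (adjusted p = 0.0683 and 0.0573). Col4a2, its partner chain, rose by 1.0 ± 0.28, 1.73 ± 0.28, 1.48 ± 0.28 and 1.73 ± 0.28 in the same comparisons, and the Col4a1 to Col4a2 ratio stayed between 1.3 and 1.58 in all libraries.

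The glomerular chains went the other way. Col4a4 was at 32.3, 32 and 29.4 RPKM in DMSO, 18.1, 15.7 and 25.4 in AA 2wk and 19.3, 20.5 and 17 in AA 4wk in PTKO, and at 25.1, 26 and 27.2 RPKM in DMSO, 19.4, 16.3 and 22.3 in AA 2wk and 19, 23.2 and 19.8 in AA 4wk in fl/fl. Its AA libraries were all below its DMSO libraries in each genotype. It fell by 0.66 ± 0.15 and 0.70 ± 0.15 in PTKO AA 2wk and AA 4wk and by 0.43 ± 0.15 in fl/fl AA 2wk (limma adjusted p = 0.00137, 0.000574 and 0.0192), and its -0.33 ± 0.15 in fl/fl AA 4wk was not called (adjusted p = 0.0594). The fl/fl AA 2wk call was lost without fl/fl DMSO library 3 (adjusted p = 0.0571) or without fl/fl AA 2wk library 2 (adjusted p = 0.0972). Col4a3, whose exons overlap a transcript of the other strand over 5.6% of their length, was at 20.7 to 25.3 RPKM in PTKO AA 4wk, against 30.3 to 40.9 in PTKO DMSO. It fell by 0.58 ± 0.21 and 0.67 ± 0.21 in PTKO AA 2wk and AA 4wk (adjusted p = 0.027 and 0.00929) and was not called in fl/fl, at -0.50 ± 0.21 and -0.45 ± 0.21. The PTKO AA 2wk call was lost without library 1 or 2 of PTKO DMSO (adjusted p = 0.0829 and 0.0899) or of PTKO AA 2wk (adjusted p = 0.0966 and 0.144). The summed podocyte markers did not fall: they were at 176 to 206 RPKM in PTKO AA 4wk, against 103 to 138 in PTKO DMSO, and at 169 to 196 in fl/fl AA 4wk, against 100 to 129 in fl/fl DMSO. The ratio of Col4a3 plus Col4a4 to Col4a1 plus Col4a2 was 0.149 to 0.158 in PTKO AA 4wk, against 0.779 to 0.941 in PTKO DMSO, and 0.194 to 0.223 in fl/fl AA 4wk, against 0.836 to 1.13 in fl/fl DMSO. In AA 2wk it was 0.174, 0.17 and 0.683 in PTKO and 0.184, 0.157 and 0.407 in fl/fl, with library 3 nearest to DMSO.

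**Figure D5:**
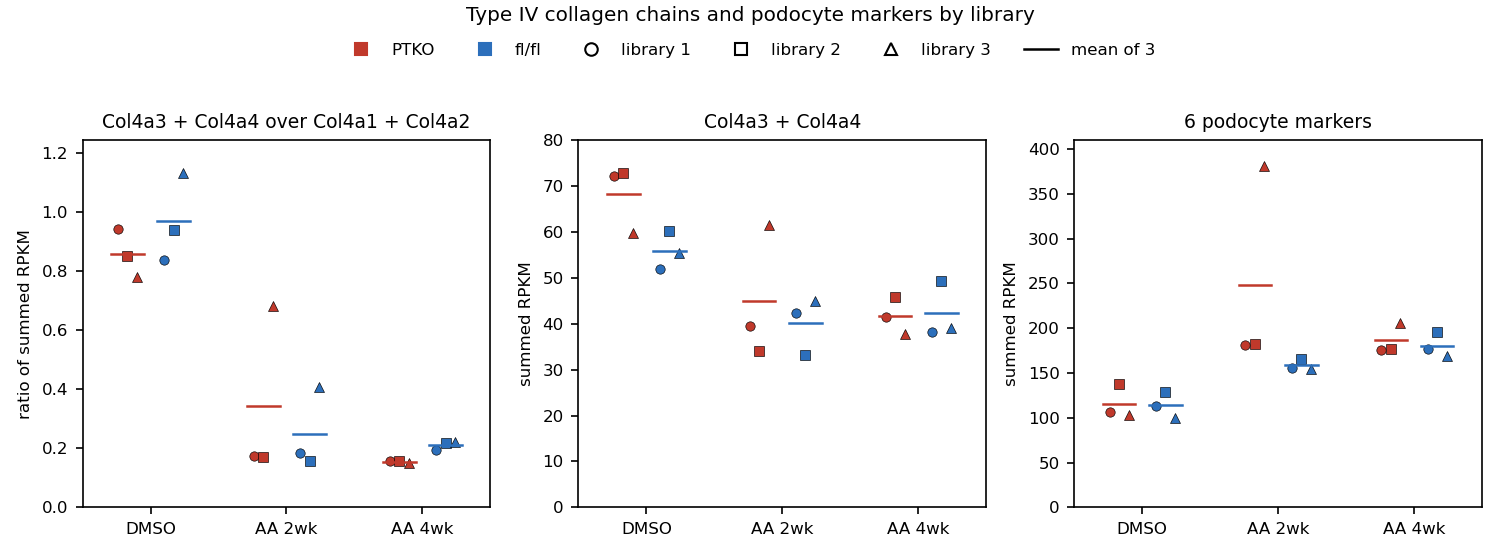
The ratio of Col4a3 plus Col4a4 to Col4a1 plus Col4a2, the summed RPKM of Col4a3 and Col4a4, and the summed RPKM of 6 podocyte markers, 1 point per library with group means as lines. The ratio is 0.149 to 0.223 in AA 4wk and 0.779 to 1.13 in DMSO, and PTKO AA 2wk library 3 is highest for the podocyte markers, at 381.

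Col4a5 and Col4a6 rose in all 4 comparisons. Col4a5, which can join either Col4a3 and Col4a4 or Col4a6, was at 6.88, 7.12 and 6.35 RPKM in DMSO, 9.77, 11.5 and 11.5 in AA 2wk and 12.3, 13.4 and 13.1 in AA 4wk in PTKO, and at 5.79, 6.48 and 5.47 RPKM in DMSO, 13, 12.5 and 13.4 in AA 2wk and 12.6, 16.5 and 13.9 in AA 4wk in fl/fl. Its log2 fold changes were 0.62 ± 0.10 and 0.84 ± 0.10 in PTKO and 1.02 ± 0.10 and 1.14 ± 0.10 in fl/fl (limma adjusted p = 0.000123, 3.93e-06, 2.11e-06 and 4.85e-07). Col4a6 was low in DMSO, at 0.263 to 0.316 RPKM in PTKO and 0.199 to 0.57 in fl/fl. After the toxin it was at 1.41 to 1.99 in PTKO AA 2wk, 2.65 to 3.27 in PTKO AA 4wk, 2.34 to 2.79 in fl/fl AA 2wk and 2.74 to 3.1 in fl/fl AA 4wk, without overlap with DMSO. The Col4a6 change was 1.62 ± 0.12 in PTKO AA 4wk and 1.51 ± 0.12 in fl/fl AA 4wk (adjusted p = 1.35e-07 and 2.78e-07). In library 3 of the AA 2wk groups, where fibrillar genes were low, Col4a5 was at 11.5 RPKM in PTKO and 13.4 in fl/fl, not below the other libraries of its group.

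Among the other types, the largest changes at AA 4wk were those of Col12a1, Col8a1, Col15a1 and Col18a1 in both genotypes. Col18a1 (ENSMUSG00000001435, chr10:77052178-77166548, minus strand), whose end fragment is endostatin, was at 36.5, 36.4 and 34.6 RPKM in DMSO, 109, 118 and 69.1 in AA 2wk and 128, 141 and 161 in AA 4wk in PTKO. It was at 29.3, 31.6 and 22.8 RPKM in DMSO, 123, 121 and 95.8 in AA 2wk and 131, 139 and 131 in AA 4wk in fl/fl. No AA library overlapped DMSO, and it rose by 1.40 ± 0.17 and 1.97 ± 0.17 in PTKO and 1.99 ± 0.17 and 2.23 ± 0.17 in fl/fl (limma adjusted p = 1.44e-05, 3.78e-07, 7.84e-07 and 2.17e-07). Col15a1 was at 46.8 to 54.9 RPKM in PTKO AA 4wk, against 6.76 to 7.69 in PTKO DMSO, and rose by 2.67 ± 0.52; it rose by 2.60 ± 0.52 in fl/fl AA 4wk (adjusted p = 0.000334 and 0.000515).

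Col12a1 (ENSMUSG00000032332, chr9:79598991-79718831, minus strand), which binds the surface of type I fibrils, was at 0.522, 0.673 and 0.537 RPKM in DMSO, 17.9, 9.9 and 1.71 in AA 2wk and 25, 46.2 and 27.5 in AA 4wk in PTKO. It was at 0.638, 1.01 and 0.302 RPKM in DMSO, 11, 13 and 1.64 in AA 2wk and 18.7, 23.2 and 12.9 in AA 4wk in fl/fl. Every AA library was above every DMSO library. Its log2 fold change was 2.39 ± 0.63 and 4.37 ± 0.63 in PTKO and 2.23 ± 0.63 and 3.53 ± 0.63 in fl/fl (limma adjusted p = 0.00471, 2.5e-05, 0.0067 and 0.000205), and its value in PTKO AA 4wk was the largest of any collagen gene tested over DMSO. Col12a1 met the filter only through AA libraries, where it was high, so its calls are not support for a change of the family. Col8a1, a short-chain collagen of vessel walls, was at 18.4 to 28.7 RPKM in PTKO AA 4wk, against 1.95 to 2.24 in PTKO DMSO, and rose in all 4 comparisons, by 2.06 ± 0.47, 2.89 ± 0.47, 2.10 ± 0.47 and 2.63 ± 0.47. Its partner Col8a2 was under 0.12 RPKM in all DMSO libraries and at 1.09 to 1.51 in PTKO AA 4wk and 0.82 to 1.11 in fl/fl AA 4wk.

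Type VI chains, which surround cells in beaded filaments, rose in PTKO AA 4wk, Col6a1 by 1.79 ± 0.66, Col6a2 by 1.87 ± 0.65 and Col6a3 by 1.26 ± 0.43 (limma adjusted p = 0.0234, 0.0185 and 0.017). Col6a1 was at 5.6, 7.16 and 6.06 RPKM in DMSO, 22.4, 13.6 and 1.24 in AA 2wk and 26.8, 21.4 and 24.5 in AA 4wk in PTKO, and at 4.73, 8.09 and 1.95 RPKM in DMSO, 31.2, 17.1 and 8.4 in AA 2wk and 17.2, 16.9 and 12.4 in AA 4wk in fl/fl. Calls of type VI lay near the threshold in both genotypes. In PTKO AA 4wk the Col6a1 call was lost in 6 of 29 alternative settings, the Col6a3 call in 4 and the Col6a2 call in 2. Col6a1 lost it without PTKO AA 4wk library 1 or 3 (adjusted p = 0.0576 and 0.0516) or PTKO DMSO library 1 or 3 (0.0585 and 0.0523), Col6a3 without PTKO AA 4wk library 1 (0.0502) or PTKO DMSO library 3 (0.05), and Col6a2 without PTKO AA 4wk library 1 (0.0531). In fl/fl, Col6a1 was called in AA 2wk and AA 4wk (adjusted p = 0.0337 and 0.0425), Col6a2 in AA 2wk alone of the 2 (0.0438 and 0.0535), and Col6a3 in neither (0.12 and 0.162). Of the 29 settings, 18 lost the Col6a2 call and 6 the Col6a1 call in fl/fl AA 2wk, and 16 lost the Col6a1 call in fl/fl AA 4wk.

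Other fibril-associated and remaining chains changed less. Col14a1, which binds decorin-coated fibrils, was at 11.8 to 16.9 RPKM in PTKO AA 4wk, against 7.14 to 9.6 in PTKO DMSO, and was called in no comparison. Col16a1 rose by 1.27 ± 0.36 in PTKO AA 4wk and 1.09 ± 0.36 in fl/fl AA 4wk (limma adjusted p = 0.00528 and 0.0145), and the fl/fl call was lost without fl/fl DMSO library 3 (adjusted p = 0.0871). Col20a1 rose by 1.0 ± 0.15 in PTKO AA 4wk (adjusted p = 3.59e-05), and its 0.36 ± 0.15 in fl/fl AA 4wk (adjusted p = 0.0461) turned to -0.40 under quantile normalization and lost its call in 17 of 29 settings. Col26a1 was called higher in all 4 comparisons, by 0.71 ± 0.16, 0.49 ± 0.16, 0.59 ± 0.16 and 0.54 ± 0.16, lost its PTKO AA 4wk call without PTKO AA 4wk library 2 (adjusted p = 0.0632) or PTKO DMSO library 3 (0.0547), and turned to -0.29 in PTKO AA 4wk, -0.05 in fl/fl AA 2wk and -0.21 in fl/fl AA 4wk under quantile normalization. Col23a1, a transmembrane collagen, fell by 0.53 ± 0.18 in PTKO AA 2wk (adjusted p = 0.021). That call was lost without PTKO AA 2wk library 3 (0.091), without PTKO DMSO library 1 or 3 (0.0703 and 0.0829), with the compared groups alone (0.0858) and with the replicate number as a block within AA 2wk (-0.27, adjusted p = 0.221). In the class of other types, 4 rose and 1 fell of 13 in PTKO AA 2wk, 11 rose in PTKO AA 4wk, and 8 and 9 rose in fl/fl AA 2wk and AA 4wk.

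The 18 untested members were near the detection limit, Col13a1 and Col17a1 reaching 1.2 and 1.19 RPKM in 1 library each and the others staying under 1 RPKM. They are Col2a1, Col6a4, Col6a5, Col6a6, Col7a1, Col9a1, Col9a2, Col9a3, Col10a1, Col11a1, Col11a2, Col13a1, Col17a1, Col19a1, Col22a1, Col24a1, Col25a1 and Col28a1. With the filter lowered to 0.1 RPKM, 15 of them could be tested among 16725 genes. In PTKO AA 2wk 2 rose and 2 fell, against 39.1% of all genes higher and 12.1% lower, and in PTKO AA 4wk 11 rose and 2 fell, against 51.8% and 14.7%. In fl/fl AA 2wk 2 rose and 2 fell, against 43.5% and 10.4%, and in fl/fl AA 4wk 9 rose and 2 fell, against 48.0% and 12.3%. The members that fell were the same 2 genes, Col19a1 and Col6a6, in each comparison. Col6a4, Col6a5, Col9a3, Col10a1, Col11a1, Col17a1, Col22a1 and Col28a1 reached 0.1 RPKM in AA libraries alone, and Col19a1 in DMSO libraries alone. Among DMSO libraries Col7a1 reached it only in fl/fl libraries 1 and 2. Among AA libraries Col6a6 reached it only in fl/fl AA 4wk library 3. Each met the lowered filter only through groups where it was high, and its call is not support for a change of the family.

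Col19a1, a fibril-associated chain of basement membrane zones, had 78, 47 and 29 reads in PTKO DMSO, 1, 2 and 4 in PTKO AA 2wk and 1, 0 and 0 in PTKO AA 4wk. In fl/fl it had 84, 109 and 62 reads in DMSO, 5, 2 and 0 in AA 2wk and 3, 3 and 2 in AA 4wk. The AA libraries were all below the DMSO libraries, and the log2(RPKM + 1) difference, which understates the change of so low a gene, was -0.37 ± 0.06 in PTKO AA 4wk and -0.53 ± 0.06 in fl/fl AA 4wk (limma adjusted p = 7.11e-05 and 4.74e-06). Col17a1, a hemidesmosome collagen of epithelia, had 61, 87 and 51 reads in PTKO AA 4wk, against 0, 2 and 6 in PTKO DMSO, and 65, 45 and 59 in fl/fl AA 4wk, against 0, 2 and 1 in fl/fl DMSO. It rose by 0.86 ± 0.12 in PTKO AA 4wk and 0.64 ± 0.12 in fl/fl AA 4wk (adjusted p = 1.98e-05 and 0.000311). Col7a1, the anchoring fibril chain, rose by 0.66 ± 0.14 in PTKO AA 4wk and 0.41 ± 0.14 in fl/fl AA 4wk (adjusted p = 0.000577 and 0.0158). Col19a1, Col17a1 and Col7a1 met the lowered filter only through groups where they were high, so these p-values are not support for a change of the family.

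The second question was whether collagen RNA went on changing between the end of the toxin course and the end of remodeling. In PTKO, 3 of 26 collagen genes rose in AA 4wk over AA 2wk and 0 fell, against 2.60% of all genes higher and 1.56% lower. They were Col20a1 (0.74 ± 0.15), Col8a2 (0.77 ± 0.18) and Col4a6 (0.54 ± 0.12), with limma adjusted p of 0.0221, 0.0319 and 0.0275. Col20a1 and Col8a2 reached 1 RPKM in AA 4wk libraries alone, and Col4a6 in AA libraries alone. All of them thus passed the filter only through groups where they were high, and their count is not support for a rise of the family. Same-numbered libraries of PTKO AA 4wk and AA 2wk deviated together only weakly (correlations 0.101, 0.243 and 0.239), and the labels give no pairing. With the replicate number as a block over all 18 libraries 12 genes were called, adding Col5a2, Col18a1, Col5a1, Col15a1, Col16a1, Col1a2, Col4a2, Col5a3 and Col12a1. With a block within the AA 2wk groups alone, or with a fit of the 2 compared groups alone, 0 were called. The count was also 0 without PTKO AA 2wk library 3 or PTKO AA 4wk library 2 or 3, 1 without PTKO AA 2wk library 2, 13 without PTKO AA 2wk library 1, 8 without fl/fl AA 2wk library 3 and 5 without fl/fl DMSO library 2. For these alternative settings the share of all tested genes called is not given here, so the counts are not a result about the family. Col1a1 changed by 2.30, 95% interval 0.47 to 4.13 (adjusted p = 0.111), and Col3a1 by 2.17, 95% interval 0.27 to 4.07 (adjusted p = 0.14). In fl/fl, 0 were called, 0 had an unadjusted p under 0.05 and voom called 0, against 0.0661% of all genes higher and 0.0587% lower. The largest fl/fl value was that of Col12a1, 1.30, 95% interval -0.04 to 2.64 (adjusted p = 0.422), while Col18a1 was bounded more tightly, at 0.24, 95% interval -0.12 to 0.61, and Col4a5 at 0.13, 95% interval -0.08 to 0.34.

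The third question was whether loss of Klf15 from the proximal tubule changed collagen RNA. At AA 4wk many collagen genes were higher in PTKO, but none passed the threshold. Col1a1 was at 98.4, 101 and 92.8 RPKM in PTKO AA 4wk, against 62.5, 57.9 and 44.4 in fl/fl AA 4wk. Col3a1 was at 145, 144 and 131 RPKM in PTKO AA 4wk, against 98.9, 86.8 and 70.6 in fl/fl AA 4wk. For both genes the genotypes did not overlap. This held for 15 of 26 collagen genes with PTKO above fl/fl (57.7%), against 14.1% of all tested genes, and for 0 with PTKO below, against 9.73%. They were Col1a1, Col1a2, Col3a1, Col5a1, Col5a2, Col4a1, Col4a2, Col6a1, Col6a2, Col8a1, Col12a1, Col14a1, Col15a1, Col16a1 and Col20a1. After median-of-ratios scaling 14 of 26 did so, against 10.9% of all genes. These genes share a tissue and libraries and are not independent of each other, and the summed fibroblast markers were also higher in part, at 190 to 223 in PTKO AA 4wk, against 138 to 193 in fl/fl AA 4wk. The summed macrophage markers did not overlap between the genotypes, at 2251 to 3311 RPKM in PTKO AA 4wk, against 1397 to 2178 in fl/fl AA 4wk, nor did the summed proximal tubule markers, at 689 to 1104 RPKM in PTKO AA 4wk, against 1330 to 1592 in fl/fl AA 4wk. The part of these markers in the result was not tested.

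By limma on all groups, 0 collagen genes were called for genotype at AA 4wk, 0 had an unadjusted p under 0.05 and voom called 0, against 0.00734% of all genes. The difference was 0.83, 95% interval -1.01 to 2.66 for Col1a1 (adjusted p = 0.857) and 0.72, 95% interval -1.18 to 2.62 for Col3a1 (adjusted p = 0.868). The 5 smallest p-values belonged to Col20a1 (0.31, 95% interval -0.01 to 0.63), Col4a2 (0.41, 95% interval -0.19 to 1.02), Col4a1 (0.44, 95% interval -0.21 to 1.09), Col5a2 (0.49, 95% interval -0.24 to 1.23) and Col14a1 (0.66, 95% interval -0.33 to 1.65), with adjusted p of 0.822 for Col20a1 and 0.836 for the other four. This fit takes its spread from all 6 groups, the scattered AA 2wk groups included. A fit of the AA 4wk groups alone called 0 too, with 16 at an unadjusted p under 0.05, and gave Col1a1 0.83, 95% interval 0.55 to 1.11 (adjusted p = 0.0776), and Col3a1 0.72, 95% interval 0.44 to 1.0 (adjusted p = 0.0813). For this fit the share of all tested genes that reached the unadjusted threshold is not given here. The count of 16 therefore does not set the collagen genes apart.

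In DMSO, 0 of 26 were called for genotype, 2 had an unadjusted p under 0.05 and voom called 0, against 0.0367% of all genes. Col27a1 had the smallest p, at -1.01, 95% interval -1.82 to -0.20 (limma adjusted p = 0.861), followed by Col20a1 (-0.33, 95% interval -0.65 to -0.01), Col18a1 (0.36, 95% interval -0.00 to 0.73), Col4a5 (0.17, 95% interval -0.04 to 0.38) and Col4a4 (0.25, 95% interval -0.06 to 0.56). With sample quality weights 5 were called, Col27a1 lower and Col4a4, Col18a1, Col4a3 and Col4a1 higher in PTKO. The weights of fl/fl DMSO libraries 1, 2 and 3 were 6.02, 0.38 and 0.58, so the fl/fl side of these calls rests mostly on library 1. The share of all tested genes called with these weights is not given here. All 3 PTKO libraries were above all 3 fl/fl libraries for 6 of 26 genes (23.1%), against 7.88% of all genes, namely Col3a1, Col4a1, Col4a2, Col4a4, Col15a1 and Col18a1, and below for Col20a1 alone, against 5.77%.

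In AA 2wk, 0 were called for genotype, 2 had an unadjusted p under 0.05 and voom called 0, against 0.00734% of all genes. Col4a6 had -0.38, 95% interval -0.64 to -0.12 (limma adjusted p = 0.504) and Col4a5 -0.23, 95% interval -0.44 to -0.02 (adjusted p = 0.716). Next came Col16a1 (-0.56, 95% interval -1.32 to 0.21), Col6a1 (-0.95, 95% interval -2.35 to 0.46) and Col18a1 (-0.22, 95% interval -0.59 to 0.14), and the values of Col6a1 and Col18a1 turned to 0.07 and 0.01 without PTKO AA 2wk library 3.

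The interaction asks whether a change over DMSO, or over AA 2wk, differed between the genotypes. No collagen gene was called in any of the 3, by limma or by voom, with 2, 2 and 1 at an unadjusted p under 0.05 for AA 2wk, AA 4wk and remodeling, against 0.0147%, 0.00734% and 0% of all genes called. For AA 2wk the smallest p-values were those of Col4a5 (-0.40, 95% interval -0.70 to -0.11), Col18a1 (-0.59, 95% interval -1.10 to -0.07), Col27a1, Col4a6 and Col3a1 (-2.08, 95% interval -4.77 to 0.60), with limma adjusted p of 0.845 or more. For AA 4wk they were Col20a1 (0.64, 95% interval 0.18 to 1.09), Col4a5, Col4a4, Col27a1 and Col18a1, with values of -0.30, -0.37, 0.74 and -0.27 for the last 4. For remodeling they were Col4a6 (0.41, 95% interval 0.04 to 0.77), Col20a1, Col14a1, Col5a2 and Col6a1.

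Collagen chains are modified and folded in the endoplasmic reticulum, and 21 genes of that machinery were tested. In PTKO AA 2wk 10 rose and 2 fell, in PTKO AA 4wk 11 rose and 2 fell, in fl/fl AA 2wk 11 rose and 0 fell, and in fl/fl AA 4wk 11 rose and 2 fell, with medians of 0.42, 0.53, 0.51 and 0.49. Of all tested genes 45.9%, 55.0%, 50.4% and 51.9% were called higher and 14.3%, 17.3%, 12.2% and 14.3% lower in these comparisons, so the list's counts are near the background. Serpinh1, the collagen chaperone, was at 119, 138 and 160 RPKM in PTKO AA 4wk, against 44.2, 45.8 and 47.6 in PTKO DMSO, and rose by 1.57 ± 0.31 (limma adjusted p = 0.000409). Fkbp10, a prolyl isomerase, rose by 2.14 ± 0.32 in both AA 4wk groups, and Glt25d1, a collagen galactosyltransferase, rose by 1.67 ± 0.16 in PTKO AA 4wk and 1.49 ± 0.16 in fl/fl AA 4wk. P4hb, a subunit of prolyl hydroxylase with other folding roles, fell by 0.40 ± 0.08 in PTKO AA 4wk and by 0.32 ± 0.08 in fl/fl AA 4wk, and Tmem38b fell by 0.49 and 0.27 there.

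Of 9 tested genes for processing and crosslinking outside the cell, 5 and 7 rose in PTKO AA 2wk and AA 4wk and 8 and 8 in fl/fl, with none lower and medians of 0.84, 1.63, 1.60 and 1.88, against 45.9%, 55.0%, 50.4% and 51.9% of all tested genes called higher. Lox, a crosslinking oxidase, was at 12.6, 15.1 and 14.1 RPKM in PTKO AA 4wk, against 0.823, 0.923 and 1.01 in PTKO DMSO, and rose by 2.96 ± 0.52 (limma adjusted p = 0.000144). In fl/fl DMSO it was at 0.382, 1.11 and 0.269 RPKM, so Lox met the filter only through AA libraries, where it was high. Bmp1, which removes the end propeptide, rose by 2.63 ± 0.37 and Loxl2 by 2.13 ± 0.41 in PTKO AA 4wk. In that group Pcolce2 (0.58, adjusted p = 0.0541) and Loxl1 (0.96, adjusted p = 0.174) were not called.

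All 7 tested collagen receptors rose in PTKO AA 4wk and in both fl/fl courses, and 6 did in PTKO AA 2wk, where Ddr2 was at 0.79 (limma adjusted p = 0.12), against 55.0% of all tested genes called higher in PTKO AA 4wk, 50.4% and 51.9% in fl/fl and 45.9% in PTKO AA 2wk. The largest was Lair1, an inhibitory receptor of leukocytes, at 3.11 ± 0.37 in PTKO AA 4wk and 2.66 ± 0.37 in fl/fl AA 4wk. The macrophage markers, 5 of 5 higher in each comparison, summed to 2251 to 3311 RPKM in PTKO AA 4wk, against 48.5 to 79 in PTKO DMSO, and their part in this was not tested. Itgb1, the common integrin chain, rose by 1.33 ± 0.17 in PTKO AA 4wk, and Ddr1, an epithelial receptor kinase, by 1.11 ± 0.09.

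Of 9 tested genes for collagen breakdown and its inhibitors, 5 and 6 rose in PTKO AA 2wk and AA 4wk, 6 and 6 in fl/fl, and 2 fell in each. Of all tested genes 45.9%, 55.0%, 50.4% and 51.9% were called higher and 14.3%, 17.3%, 12.2% and 14.3% lower. These counts are not far from that background. Mmp2, a gelatinase, was at 56.7, 65.6 and 77.5 RPKM in PTKO AA 4wk, against 1.29, 1.98 and 2.16 in PTKO DMSO, and rose by 4.59 ± 0.60 (limma adjusted p = 1.13e-05). Timp1, an inhibitor of such enzymes, rose by 4.79 ± 0.81 and Mmp14, which activates Mmp2, by 3.55 ± 0.40 in PTKO AA 4wk. Among DMSO libraries Timp1 reached 1 RPKM only in PTKO library 3, at 3.06, so it met the filter only through AA libraries. The genes that fell were Pepd, which splits proline dipeptides, by 1.63 ± 0.15, and Timp3 by 1.26 ± 0.14 in PTKO AA 4wk. Mmp13 was not called in any of the 4 comparisons.

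Of 15 other basement membrane genes, 8 rose and 2 fell in PTKO AA 2wk, 11 and 2 in PTKO AA 4wk, 9 and 2 in fl/fl AA 2wk and 11 and 1 in fl/fl AA 4wk. Of all tested genes 45.9%, 55.0%, 50.4% and 51.9% were called higher and 14.3%, 17.3%, 12.2% and 14.3% lower in these comparisons. The AA 2wk counts in particular are near that background. Agrn, a proteoglycan, rose by 1.90 ± 0.20 and Lamb3 by 1.74 ± 0.29 in PTKO AA 4wk (limma adjusted p = 2.19e-06 and 8.68e-05). Lama1, a laminin chain of tubule basement membranes, fell by 0.63 ± 0.13 in PTKO AA 4wk and 0.62 ± 0.13 in fl/fl AA 4wk, and Lamc3 fell by 0.73 ± 0.29 in PTKO AA 4wk. No gene of these 5 lists was called for genotype or interaction.

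At AA 4wk some markers of other cell types were lower or higher than in DMSO, and others overlapped DMSO or stayed low. The summed RPKM of 6 proximal tubule markers was 689 to 1104 in PTKO AA 4wk, against 3269 to 3755 in PTKO DMSO, and 1330 to 1592 in fl/fl AA 4wk, against 3336 to 4005 in fl/fl DMSO, with 6 and 5 of 6 lower, against 17.3% and 14.3% of all tested genes. The summed myofibroblast and smooth muscle markers were at 151 to 200 in PTKO AA 4wk, against 28.4 to 47.5 in PTKO DMSO, and at 106 to 159 in fl/fl AA 4wk, against 15.8 to 75.6 in fl/fl DMSO. Endothelial markers overlapped, at 259 to 308 in PTKO AA 4wk and 235 to 262 in PTKO DMSO. Schwann cell markers stayed at or under 2.41 RPKM in sum, with Sox10 and S100b under 1 RPKM in all 18 libraries, and of the chondrocyte markers Acan and Matn1 stayed under 1 RPKM while Sox9 rose by 2.68 ± 0.26 in PTKO AA 4wk. The chondrocyte markers summed to 0.105 to 0.438 RPKM in DMSO libraries, so Sox9 met the filter only through AA libraries, where it was high. The part of these markers in the collagen changes was not tested.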

How the data were processed

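RNA of 18 kidney cortex samples was sequenced with a stranded total RNA kit, per the labels' protocols. The authors deposited RPKM values per gene, per the file headers. The submitters' processing notes name bcl2fastq 2.19, kallisto and mm10; how reads were assigned is not given in the sources used here. Whole reads could be recovered, within 0.02 of a whole number, for 17579 of 17579 genes above 0 in at least 6 libraries (100%).

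Genes with at least 1 RPKM in 3 or more libraries were tested on log2(RPKM + 1) with limma 3.58.1 and statmod 1.5.0 in R 4.3.3, in one fit of 6 group means with an intensity trend and robust empirical Bayes, for 12 comparisons. P-values were two-sided and adjusted by Benjamini-Hochberg over all tested genes, at 0.05. The smallest p an exact permutation test of 3 against 3 allows is 0.1. A fold change on this scale understates that of low genes. The method was tested on simulated data.

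The members, classes and lists were chosen with earlier results of these data known. Named genes were a fixed set of main chains, up to 5 called members per direction with the largest change, the 5 smallest p-values for genotype and interaction, and from each list the largest called genes; the text gives a part of these.

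The labels give groups the same replicate numbers. Same-numbered libraries deviated together (every correlation over 0.1) for PTKO over fl/fl at AA 2wk (0.436, 0.431 and 0.663) and PTKO AA 4wk over AA 2wk (0.101, 0.243 and 0.239); this pairing comes from the data and not from the labels. Alternatives were other pseudocounts, filters, scalings, voom on recovered reads, sample weights, the replicate block, the compared groups alone and each replicate left out.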

Additional observations from a re-analysis of the deposited data

How the results depend on the processing

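Of the 74 values called for collagen genes in toxin and remodeling comparisons, 29 alternatives gave 2146 values: 2012 kept direction and call, 129 lost the call and 5 reversed. Over all 156 values of the 26 tested genes in these 6 comparisons (4524 under the alternatives), 153 gained a call and 102 that had not been called changed sign. With quantile normalization Col20a1 and Col5a3, not called in fl/fl AA 2wk, were called lower there (-0.51 and -0.40), as was Col5a3 in fl/fl AA 4wk (-0.32). For genotype and interaction none was called, and of 4524 values 5 gained a call and 141 changed sign. Among the called values and the 5 smallest p-values of each genotype and interaction comparison, the reversed ones were, under quantile normalization, Col26a1 (-0.29 in PTKO AA 4wk, -0.05 in fl/fl AA 2wk, -0.21 in fl/fl AA 4wk), Col20a1 (-0.40, fl/fl AA 4wk) and Col5a3 (-0.28, PTKO AA 4wk), and, without PTKO AA 2wk replicate 3, Col6a1 (0.07, with one replicate left out -1.62 to 0.07) and Col18a1 (0.01, with one left out -0.37 to 0.01) for PTKO over fl/fl at AA 2wk. Counts called with one replicate left out ranged from 10 to 19 in PTKO AA 2wk, 19 to 24 in PTKO AA 4wk, 14 to 21 in fl/fl AA 2wk, 16 to 21 in fl/fl AA 4wk and 0 to 13 for PTKO AA 4wk over AA 2wk. PTKO AA 2wk gave 23 with sample weights, 20 without both number 3 libraries and 20 with a block within AA 2wk. PTKO AA 4wk gave 36 and fl/fl AA 4wk 29 with either lower filter, by testing more members. PTKO AA 4wk over AA 2wk gave 1 with a pseudocount of 0.1, 6 with either lower filter, 5 with quantile normalization, weights or no number 3 libraries, 0 with the compared groups alone or a block within AA 2wk, and 12 with the replicate block. The replicate block gave 13, 23, 19 and 20 calls in PTKO AA 2wk, PTKO AA 4wk, fl/fl AA 2wk and fl/fl AA 4wk. Weights gave 5 for PTKO over fl/fl in DMSO. The share of all tested genes called is not given for these alternatives, so the counts show their dependence on the setting alone.

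Class medians moved as follows. Fibrillar, PTKO AA 4wk: 2.89 (pseudocount 0.1), 1.28 and 0.53 (0.1 RPKM filter, no filter), 2.16 (median-of-ratios), 2.02 (quantile), 2.93 (voom). Fibrillar, fl/fl AA 2wk: 0.85 and 0.15 (filters), 2.45 (block within AA 2wk). Fibrillar, fl/fl AA 4wk: 2.33 (pseudocount), 1.07 and 0.44 (filters), 1.67 (median-of-ratios), 1.47 (quantile), 2.24 (weights), 2.38 (voom), 1.86 to 2.31 (one left out). Type IV: PTKO AA 2wk 0.40 (quantile); PTKO AA 4wk 1.33 (pseudocount), 0.84 (median-of-ratios), 0.59 (quantile), 1.34 (voom), 1.67 (XV, XVIII, VII and XVII added); fl/fl AA 2wk 0.87 (median-of-ratios), 0.65 (quantile), 1.43 (types added); fl/fl AA 4wk 1.51 (pseudocount), 1.03 (median-of-ratios), 0.72 (quantile), 1.52 (voom), 1.62 (types added). Other types: PTKO AA 2wk -0.01 (quantile, reversed), 1.30 (block within AA 2wk); PTKO AA 4wk 1.99 (pseudocount), 0.66 and 0.49 (filters), 0.95 (median-of-ratios), 0.54 (quantile), 2.00 (voom); fl/fl AA 2wk 1.88 (pseudocount), 0.24 (no filter), 0.21 (quantile), 1.93 (voom), 1.65 (block within AA 2wk); fl/fl AA 4wk 1.79 (pseudocount), 0.36 and 0.34 (filters), 0.85 (median-of-ratios), 0.39 (quantile), 1.79 (voom), 0.92 to 1.43 (one left out). Under median-of-ratios the mean summed RPKM was 342, 283 and 286 for fibrillar, type IV and other types in PTKO AA 4wk, 51.9, 188 and 87.9 in PTKO DMSO, 224 for other types in fl/fl AA 4wk and 145 for type IV in fl/fl DMSO. Apart from the filters, which add low members, the cause was not tested.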
